A study of Mus musculus with 2 samples.

Results

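The mRNAs of the disulfide isomerases and oxidases of the endoplasmic reticulum (ER), and of their folding partners, were measured in NIH3T3 cells with and without ER stress. The group held 10 genes, picked by name from all 28095 gene names on the array: the isomerases P4hb, Pdia3, Pdia4, Pdia5, Pdia6 and Txndc5, the oxidases Ero1l and Ero1lb, and the associated folding factors Creld2 and Ppib. Together they had 18 probes, each printed as 1 spot, of which 15 were well above background in both channels on both arrays. NIH3T3 is an immortalised mouse fibroblast line. Control cells were grown in medium with 10% serum and left untreated, and stressed cells were grown in the same way and given 10 µM thapsigargin, an inhibitor of the ER calcium pump, for 3 h. Cell lysates were run on sucrose gradients of 10 to 40%, from which polysomal RNA (P) was collected apart from RNA that was free or in monosomes (FM). On each 2-colour array P was labelled with Cy3 and FM with Cy5, and per the labels 300 ng of RNA in all were labelled per condition from equal volumes of both fractions. The study states that P held more RNA than FM in control and less in stress. It kept these proportions at labelling, so the RNA input of each fraction differed between the arrays. Each condition was 1 array of RNA pooled from 3 preparations, so differences between the conditions could not be checked against replicates, and p-values are not reported.

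Secreted and membrane proteins acquire their disulfide bonds in the ER. Protein disulfide isomerases carry thioredoxin-like folds whose paired cysteines form, break and exchange these bonds in client proteins, and Ero1 oxidases refill the isomerases with oxidising equivalents taken from molecular oxygen. When calcium leaves the ER and unfolded proteins build up, the unfolded protein response lowers general translation initiation through the kinase PERK and raises transcription of folding factors through ATF6 and XBP1. An mRNA that is being translated carries several ribosomes and sediments with polysomes, so the log2 ratio of the P to the FM signal (log2 P/FM) was the measure of polysome association. A, the average log2 signal over the P and FM channels, was the measure of abundance.

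Both arrays lay on 1 slide and were read in 1 scan, and no spot was saturated on either. Between 42.5% and 46.3% of the 43379 non-control spots were well above background in each channel. Of 8 fibroblast markers, 8 had A above 4.5 on both arrays, the filter used by the study, against 2 of 11 markers of other cell types found on the array. The values of the members are set against the 10033 coding mRNAs that passed that filter, for which the median log2 P/FM of the control array was 0.34 and that of the stress array -0.29. Since replicates were lacking, the spread between probes of one mRNA served as the error, with a median SD of 0.29 in control, 0.28 in stress, 0.32 for the change in log2 P/FM and 0.18 for the change in A (n = 3412 mRNAs). It covers differences between probes and not the spread between preparations. In every member that passed the filter with several probes, the SD of the change in log2 P/FM was larger than this median. It ran from 0.49 (Txndc5) to 1.60 (Ero1l). The change of a ratio between arrays also depends on how the arrays are scaled. Relative to control, the median signal of 10 spike-in probes was lower by 1.51 in P and higher by 0.97 in FM on the log2 scale, and no scaling was applied here, as in the methods of the study. Whether equal amounts of spike-in RNA went into each labelling is not given in the sources used here.

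In control cells the members were rich in polysomal RNA, and in stressed cells they were not. Of the 10 members, 9 passed the filter, and log2 P/FM was above 0 in all 9 of them in control, with a median of 1.65 and a range of 0.78 to 1.97. In stress their median was -0.20, 0.086 above that of all mRNAs, and 4 of 9 remained above 0. Over all mRNAs the 25th and 75th percentiles were -0.33 and 0.97 in control and -0.95 and 0.32 in stress. Values above 0 were thus common on both arrays. The change was negative in 9 of 9, whereas 29.3% of all mRNAs were above 0, and its median was -1.91 against -0.71 for all mRNAs. By the thresholds of the study 8 of the 9 were sensitive to stress, meaning a change of -0.8 or lower, beside 47% of all mRNAs. That count was 4 of 9 after loess within each array (27.2% of all mRNAs), 3 of 10 with the processed signals of the scanner software (33.3%) and 0 of 9 with spike-in scaling (0.758%). None of the 9 was resistant, a class that needs a ratio of at least 0.8 on each array (3% of all mRNAs), whereas 3 of 9 were after loess (4.37%), 4 of 10 with processed signals (6.79%) and 8 of 9 with spike-in scaling (30.3%). None was inducible, which required a value at or below 0 in control and an increase of 1 or more (8.86% of all mRNAs). The direction depended on scaling. With each array centred on its own median 8 of 9 members were lower and 1 higher in stress, beside a median change of -0.086 for all mRNAs. With scaling to the spike-in probes 2 were lower and 7 higher, and the median change of the members was then 0.57 beside 1.77 for all mRNAs. The shares of all mRNAs in each direction were not counted under these scalings. Under both, 8 of 9 members lay below the median of all mRNAs.

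**Figure D1:**
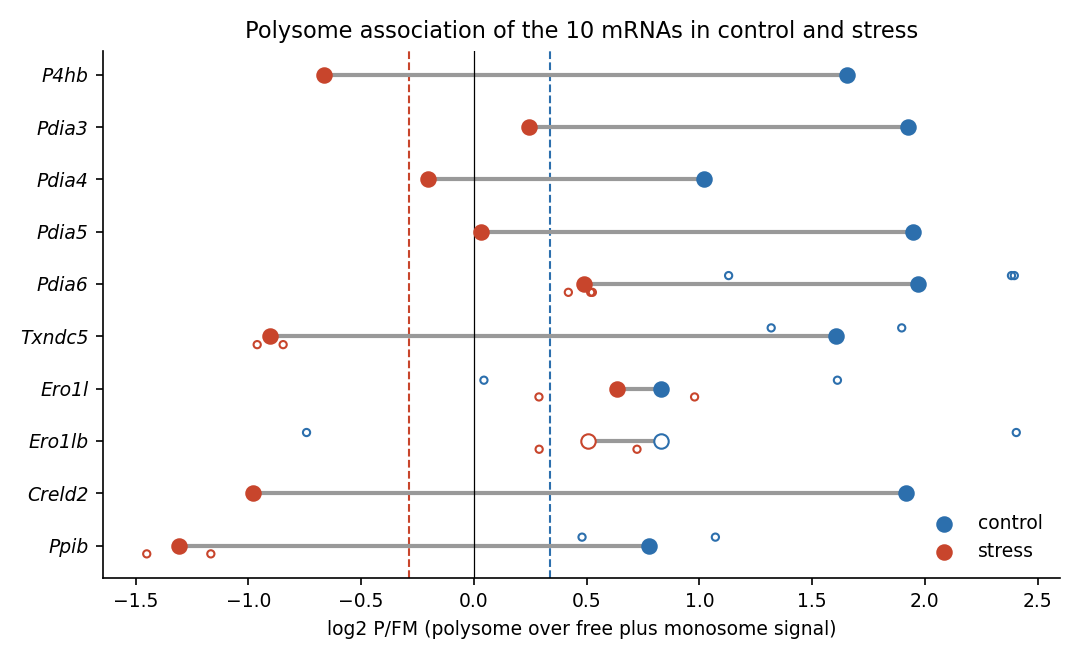
log2 P/FM (horizontal axis) of each of the 10 mRNAs in control (blue) and stress (red), 1 array each; large points are the value of the mRNA, small open circles its separate probes where it had several, and dashed lines the medians of all coding mRNAs (0.34 and -0.29). Large open points mark Ero1lb, which did not pass the filter. The lines of the 9 members that passed run to the left from control to stress, those of Creld2 and Txndc5 from 1.92 to -0.98 and from 1.61 to -0.90.

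P4hb encodes the founding protein disulfide isomerase, which is also the beta subunit of collagen prolyl 4-hydroxylase. Its probe (chr11:120422076-120422135, minus strand, mm9) gave background-subtracted signals of 6397 in P and 2031 in FM in control, and of 6561 in P and 10401 in FM in stress. The P signal was thus almost the same on both arrays (1.03-fold) while the FM signal was 5.12-fold higher, at percentile 99.1 of all mRNAs for that change. log2 P/FM went from 1.65 to -0.66, a change of -2.32, and A was higher by 1.20. With the processed signals of the scanner software log2 P/FM in stress was above 0, at 0.23, and after loess it was 0.21, with changes of -0.52 and -0.62.

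Pdia3, also called ERp57, works with calnexin and calreticulin on glycoproteins. Its only probe (chr2:121263542-121263602, plus strand, mm9) carries an older accession that the array file describes as a phospholipase C, and it was used under the gene name given by the file. The signals were 5234 in P and 1377 in FM in control and 7058 in P and 5960 in FM in stress. P was 1.35-fold and FM 4.33-fold higher, so log2 P/FM went from 1.93 to 0.24, a change of -1.68, with A higher by 1.27. With the processed signals of the scanner software the change in log2 P/FM was 0.044.

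Pdia4 (ERp72) has an additional thioredoxin-like domain with a cysteine pair. Its probe (chr6:47746516-47746575, minus strand, mm9) gave 516 in P and 254 in FM in control, and 958 and 1103 in stress. Both fractions gave more signal under stress, 1.86-fold in P and 4.34-fold in FM. log2 P/FM went from 1.02 to -0.20, a change of -1.23, and A was higher by 1.51.

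Pdia5 is a less studied isomerase of the same family. Its probe (chr16:35407720-35407779, minus strand, mm9) gave 619 in P and 161 in FM in control and 550 in P and 538 in FM in stress. The P signal was 0.889-fold that of control and the FM signal 3.35-fold. log2 P/FM went from 1.95 to 0.03, and A was higher by 0.79, below the threshold of 1.

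Pdia6 (P5) acts with the chaperone BiP. Of its 4 probes 3 match the RefSeq mRNA, and their log2 P/FM was 1.13, 2.40 and 2.38 in control and 0.42, 0.53 and 0.52 in stress. The 3 probes lay close together in stress and spread by more than 1 unit in control. Their mean change was -1.48 ± 0.67 (SD, n = 3 probes), and A was higher by 1.43. The brightest of them (chr12:17290963-17291022, plus strand, mm9) gave 8754 in P and 1677 in FM in control and 13656 in P and 9537 in FM in stress. The remaining probe, named for another accession (chr12:17289144-17289203, plus strand, mm9), differed from these in direction. It was not well above background in P in control, and its FM signal went from 265.5 to 175 while its log2 P/FM in stress was -2.79. With that probe counted in, the change of Pdia6 was -0.87.

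Txndc5 (ERp46) is an isomerase with several thioredoxin-like domains, and of the 9 members it was the only one with a lower A in stress, by 0.29. Its brighter probe (chr13:38592680-38592739, minus strand, mm9) gave 1265 in P and 507 in FM in control, and 448 in P and 806 in FM in stress. The other (chr13:38610880-38610939, minus strand, mm9) gave 131 and 35.0 in control, and 43.4 and 84.5 in stress. Both probes showed less signal in P (0.354-fold and 0.332-fold) and more in FM (1.59-fold and 2.41-fold). The mean change in log2 P/FM was -2.51 ± 0.49 (SD, n = 2 probes), from 1.61 to -0.90. In log2 terms its P signal was lower by 1.54 and its FM signal higher by 0.97, values that lie within the ranges of the spike-in probes (-1.70 to -1.28 in P and 0.71 to 1.15 in FM).

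The oxidases were the dimmest members, and their probes disagreed. Ero1l (now Ero1a), the widely expressed oxidase, had one probe (chr14:45904192-45904251, minus strand, mm9) with signals of 34.2 in P and 33.2 in FM in control and 81.8 and 41.5 in stress. The other, whose target lies across an exon junction (chr14:45905723-45907426, minus strand, mm9), gave 269 in P and 88.0 in FM in control and 319 in P and 261 in FM in stress. log2 P/FM was higher by 0.93 in the dim probe and lower by 1.32 in the brighter one, so the mean change of -0.19 ± 1.60 (SD, n = 2 probes) has no settled direction. Both probes had more signal under stress, with A higher by 0.79 and 0.91. Of the 9 members that passed the filter, only Ero1l was not classed as sensitive, and with its brightest probe alone the change was -1.32.

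Ero1lb (now Ero1b), the paralog known from the pancreas, did not pass the filter and is given by its probes only. One (chr13:12701235-12701294, plus strand, mm9) gave 23.5 in P and 39.3 in FM in control and 63.2 and 38.3 in stress, so that log2 P/FM went from -0.74 to 0.72. The next (chr13:12696604-12696663, plus strand, mm9) was not well above background in FM in control. There log2 P/FM in control was bounded at 0.57 or more, where the lowest measurable signal was set at the percentile 1 of signals well above background (24.2 in that channel), and it was 0.29 in stress, a change of -0.28 or lower. Its FM signal was at least 1.30-fold higher in stress. The third probe was not well above background in either channel on either array. With probes well above background alone Ero1lb met the criteria for inducible mRNAs, with a change of 1.47 on a single dim probe.

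Creld2 is a small secreted and ER protein with epidermal growth factor-like domains and a known target of ER stress, listed here as a proposed partner of disulfide isomerases. It had the highest change in A of the group. Its probe (chr15:88656997-88657056, plus strand, mm9) gave 9612 in P and 2544 in FM in control and 13361 in P and 26373 in FM in stress. The P signal was 1.39-fold and the FM signal 10.4-fold that of control, at percentiles 67.7 and 99.9 of all mRNAs. log2 P/FM went from 1.92 to -0.98, a change of -2.90, and A was higher by 1.92, or 3.80-fold. With the processed signals of the scanner software log2 P/FM in stress was 0.52 and after loess 0.13, above 0 in both, with changes of -0.77 and -0.96.

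Ppib (cyclophilin B) is no thiol enzyme but a prolyl isomerase of the ER that acts on procollagen. Its probes (chr9:65908181-65909306, across an exon junction, and chr9:65914355-65914414, plus strand, mm9) gave 762 and 6069 in P and 546 and 2889 in FM in control. In stress the P signals were 367 and 3235, and the FM signals 825 and 8843. Both probes therefore had less signal in P (0.482-fold and 0.533-fold) and more in FM (1.51-fold and 3.06-fold). The mean change in log2 P/FM was -2.08 ± 0.62 (SD, n = 2 probes), and A differed by 0.06, less than the spread between probes.

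The order of the members by log2 P/FM in control had Pdia6 (1.97), Pdia5 (1.95), Pdia3 (1.93) and Creld2 (1.92) at the top, followed by P4hb (1.65) and Txndc5 (1.61), and then by Pdia4 (1.02), Ero1l (0.83) and Ppib (0.78). Among neighbours in this order, only Txndc5 and Pdia4 were further apart, by 0.59, than the SD of a difference between probes. In stress the order ran from Ero1l (0.63) to Ppib (-1.31), and the one gap of that size was between Pdia4 and P4hb, at 0.46. The order of changes in log2 P/FM ran from Creld2 to Pdia4, with Ero1l left aside for its disagreeing probes. There no neighbours were further apart than the SD of a difference between probes. The largest gap was 0.39, between Creld2 and Txndc5.

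The change in the ratio was made up differently by its parts. The FM signal was higher in stress in 9 of 9 members, with a median of 2.11 (log2) against 0.72 for all mRNAs, of which 86.6% were above 0. For 7 of 9 it was higher by 1 or more, as for 32.4% of all mRNAs. The P signal of the same mRNAs had a median change of 0.43 against 0.02 for all mRNAs, was above 0 in 6 of 9 (50.7% of all mRNAs), and was in no member higher by 1 or more (16.7% of all mRNAs). Thus P4hb, Pdia3, Pdia5 and Creld2 combined an FM signal higher by 1 or more with a P signal within 0.5 of control. This pattern was found in 13.2% of all mRNAs. Among the gene lists described below, it was also present in 7 of 12 other ER thioredoxin-fold proteins and 3 of 7 other ER prolyl isomerases. It was present in 3 of 9 mRNAs for collagen hydroxylation and folding, 3 of 15 ER chaperones and 3 of 18 thiol redox proteins outside the ER. Pdia4, Pdia6 and Ero1l had a P signal higher by 0.69 to 0.89, and Txndc5 and Ppib one lower by 1.54 and 0.98. These values are relative to the arrays as scanned. Relative to the spike-in probes, the P signal was higher in 8 of 9 members, by 0.53 (Ppib) to 2.41 (Pdia4), and that of Txndc5 differed by -0.03. Most mRNAs were higher by that measure too, since the 5th percentile of their change in P was -1.43 and the spike-in median -1.51. Relative to the same probes, the FM signal was higher by 0.77 to 2.40 in the isomerases other than Txndc5 and in Creld2. It differed by -0.02 for Ero1l, -0.0013 for Txndc5 and 0.13 for Ppib. The median change in FM over all mRNAs (0.72) lay below that of the spike-in probes (0.97). The RNA came from whole cultures, so fewer responding cells and a smaller response per cell cannot be told apart.

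**Figure D2:**
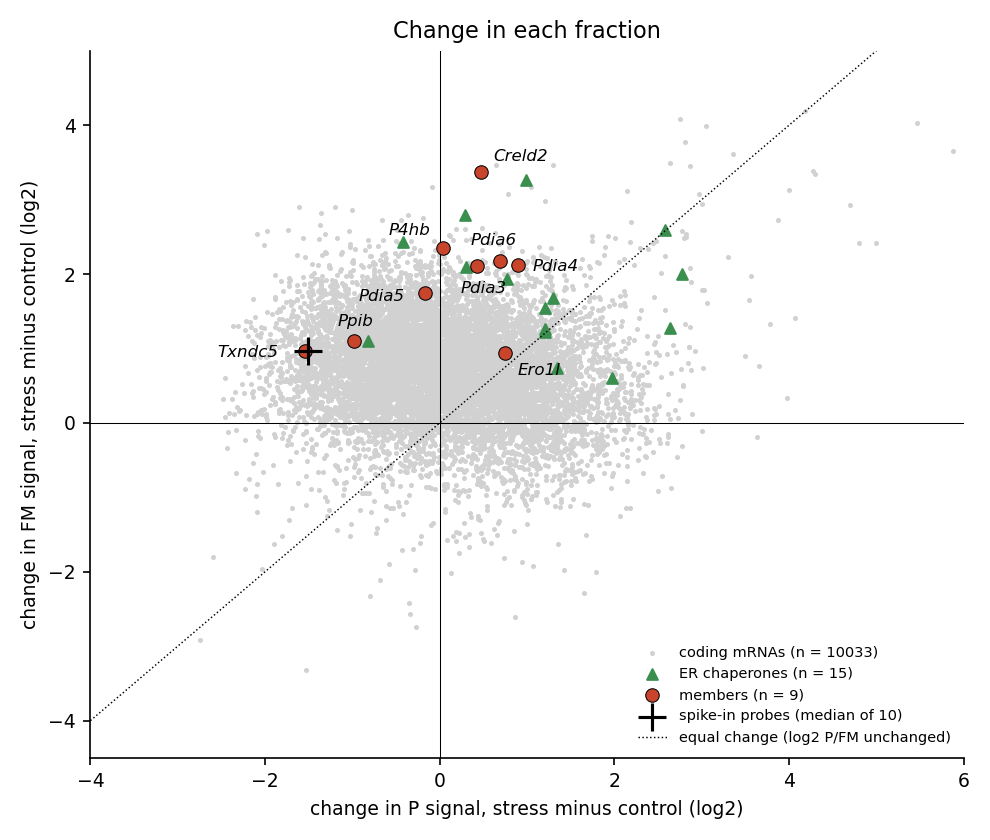
Change in P signal (horizontal axis) against change in FM signal (vertical axis), both as log2 of stress over control on 1 array each, for 9 members, 15 ER chaperones, all 10033 coding mRNAs and the median of 10 spike-in probes. On the dotted line log2 P/FM is unchanged. All 9 members lie above it, with Creld2 the highest at 3.37 in FM and Txndc5 on the spike-in mark.

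Abundance was higher for most members. A was above 0 in change in 8 of 9 (76.8% of all mRNAs), with a median of 1.20 against 0.37, and 5 of 9, namely P4hb, Pdia3, Pdia4, Pdia6 and Creld2, were higher by 1 or more, beside 11.7% of all mRNAs. None was lower by 1 or more (0.698% of all mRNAs). Creld2 stood 0.42 above Pdia4, more than the spread between probes, whereas Pdia4, Pdia6, Pdia3 and P4hb lay between 1.51 and 1.20 with gaps smaller than it. With the log2 of the summed P and FM signals in place of A, an alternative chosen after seeing the data, the median was 0.98 and 4 of 9 were higher by 1 or more, Pdia3 being at 0.98. That measure was not computed for all mRNAs, so the 4 of 9 cannot be set beside the 11.7%. With each array centred on its medians, 2 of 9 were higher by 1 or more, beside 2.37% of all mRNAs.

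Promoter sequences of the members were read because the unfolded protein response acts through short promoter elements. RefSeq promoters (GRCm38.p6, 250 bases before to 50 after the start) were matched for all 10 members, 12 promoters in all. The ER stress response element (ERSE, CCAAT and CCACG with 9 bases between them, searched exactly on both strands) was found in 39 of 32851 promoters (0.119%), 3 of them of members. These are Creld2 (chr15:88819500-88819558), Ero1lb (chr13:12565662-12565720) and Pdia6 (chr12:17266471-17266529), all on the plus strand. The element begins 126, 201 and 98 bases upstream of the start. In the sequences shown here, the fixed letters of the element are in capitals, and CGTGG and ATTGG are its ends read on the opposite strand.
Creld2: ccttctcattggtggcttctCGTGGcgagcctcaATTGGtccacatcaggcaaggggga
Ero1lb: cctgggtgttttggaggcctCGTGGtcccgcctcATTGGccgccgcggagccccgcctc
Pdia6: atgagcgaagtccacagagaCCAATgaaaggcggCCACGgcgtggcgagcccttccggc

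With at most 1 mismatch in the fixed letters, 494 promoters (1.50%) held the element, and Pdia3 and Pdia4 were added among the members. They are shown for comparison, with the mismatched base left in lower case, from chr2:121413853-121413901 (GRCm38.p6, plus strand) and chr6:47813582-47813640 (GRCm38.p6, minus strand).
Pdia3: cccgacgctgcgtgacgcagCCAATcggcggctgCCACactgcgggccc
Pdia4: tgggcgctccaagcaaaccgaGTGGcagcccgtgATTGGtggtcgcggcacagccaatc

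The core of the unfolded protein response element (TGACGTGG) was present in 222 promoters (0.676%), among the members in 1 of the promoters of Txndc5, 138 bases upstream of the start (chr13:38528025-38528072, GRCm38.p6, minus strand).
Txndc5: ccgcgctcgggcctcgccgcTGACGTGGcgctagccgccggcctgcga

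A second form of the ER element, ERSE-II (ATTGG and CCACG with 1 base between them), was searched exactly only. It was in 12 promoters (0.0365%) and in none of the members. ERSE-II with 1 mismatch was not counted, and the Creld2 sequence shown here holds such a match (ATTGGtccaca). By the searches made, no match lay in the windows of P4hb, Pdia5, Ero1l and Ppib. Of the 5 members with A higher by 1 or more, 4 (Creld2, Pdia3, Pdia4 and Pdia6) held ERSE with at most 1 mismatch and P4hb did not. Ero1lb, which held ERSE without a mismatch, did not pass the filter and is not among the 5. A link between ERSE and A was not tested. Txndc5, with the UPRE core, was the one with lower A. A match is a description of the letters and was not tested as a binding site.

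The members were set beside lists of related genes, by their counts and medians. Beside the counts that follow, 47% of all mRNAs were sensitive, 8.86% were inducible and 11.7% were higher in A by 1 or more. The counts were made without scaling only. All median changes in log2 P/FM of these lists that follow were above 0 with scaling to the spike-in probes, at 0.18 to 2.72, and that of the ER chaperones was also above 0 after centring (0.29) and after loess (0.58). The median change in P signal was 1.21 in the ER chaperones and 0.43 in the members. Of 15 that passed the filter, 14 were higher in A by 1 or more, with a median of 1.36, close to the members, but their median change in log2 P/FM was -0.34 and 6 were sensitive. In 7 of 15 both the P and the FM signal were higher by 1 or more, as in 4.14% of all mRNAs and none of the 9 members. Hspa5 (BiP), the main Hsp70 chaperone of the ER, went from 1.06 to 2.43 in log2 P/FM, and Hsp90b1 (Grp94) stayed at 0.46 on both arrays with A higher by 2.58. Sil1, the nucleotide exchange factor of BiP, went from 2.64 to -0.21 with A higher by 1.00, and Sdf2, a subunit of an ER protein complex, from 1.87 to -0.05 with A higher by 0.14.

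Other ER proteins of the thioredoxin fold were lower in log2 P/FM as well, with less change in A. Of 12 that passed, 9 were sensitive with a median change of -1.30, and 1 was higher in A by 1 or more, the membrane protein Txndc15 (1.03), which also had the lowest change of the list in log2 P/FM, from 1.76 to -0.51. Tmx4, a transmembrane member, went the other way in ratio, from 0.16 to 0.72. Tmx3 had the lowest change in A (-0.35). Of 6 other ER thiol oxidases and peroxidases, 5 were sensitive and none was higher in A by 1 or more, with medians of -1.72 and 0.25, the latter -0.23 after centring. Prdx4, a peroxiredoxin that can also feed oxidising equivalents to disulfide isomerases, went from 3.21 to -0.89 with A higher by 0.85, and Gpx8, an ER glutathione peroxidase, from -0.94 to -1.19 with A lower by 0.86.

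Of 7 prolyl isomerases of the ER other than Ppib, 6 were sensitive and none was higher in A by 1 or more, with median changes of -2.30 in log2 P/FM and 0.47 in A. Fkbp9 went from 1.20 to -1.28 and Fkbp10, a collagen-binding isomerase, from 1.12 to -0.56, and Fkbp7 and Fkbp2 were higher in A by 0.73 and 0.27. In the list for collagen hydroxylation and folding, which includes partners of P4hb and Ppib, 5 of 9 were sensitive and 2 were higher in A by 1 or more. P4ha2, a catalytic alpha subunit that pairs with P4hb, went from 0.48 to 0.95 with A higher by 1.19, while P4hb was at -0.66 in stress. Crtap, which forms a complex with cyclophilin B, went from 1.66 to -0.76 with A lower by 0.15, and Plod2, a lysyl hydroxylase, from -0.07 to 0.41.

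Enzymes of the same kinds outside the ER were also lower in log2 P/FM, by these medians. Of 18 thiol redox proteins of cytosol, nucleus and mitochondria, 14 were sensitive with a median change of -1.88, and of 17 prolyl isomerases outside the ER 12 were sensitive with a median of -1.16. None of the 35 was higher in A by 1 or more, with medians of 0.04 and 0.18, which after centring were -0.44 and -0.30. Glrx3 went from 1.16 to -1.97 and Fkbp3 from 2.16 to -2.01, whereas Glrx (1.22 to 1.01) and Ppwd1 (-0.02 to 0.08) were nearly level. The highest and lowest changes in A were 0.66 (Txnl1) and -0.99 (Glrx) in the first list and 0.96 (Ppil4) and -0.52 (Fkbp8) in the second.

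Of 10 regulators of the unfolded protein response that passed, 3 were inducible and 7 were higher in A by 1 or more, with median changes of 0.24 in log2 P/FM and 1.48 in A. Atf4, the transcription factor translated under PERK signalling, went from -1.60 to 1.83, and Herpud1, an ER-associated degradation factor, stayed at 0.67 and 0.66 with A higher by 4.19. Atf6b was lowest in both changes, from 0.79 to -1.06 with A higher by 0.28. Creld1, the paralog of Creld2, did not pass the filter and its probe was not well above background, so no change is given.

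**Figure D3:**
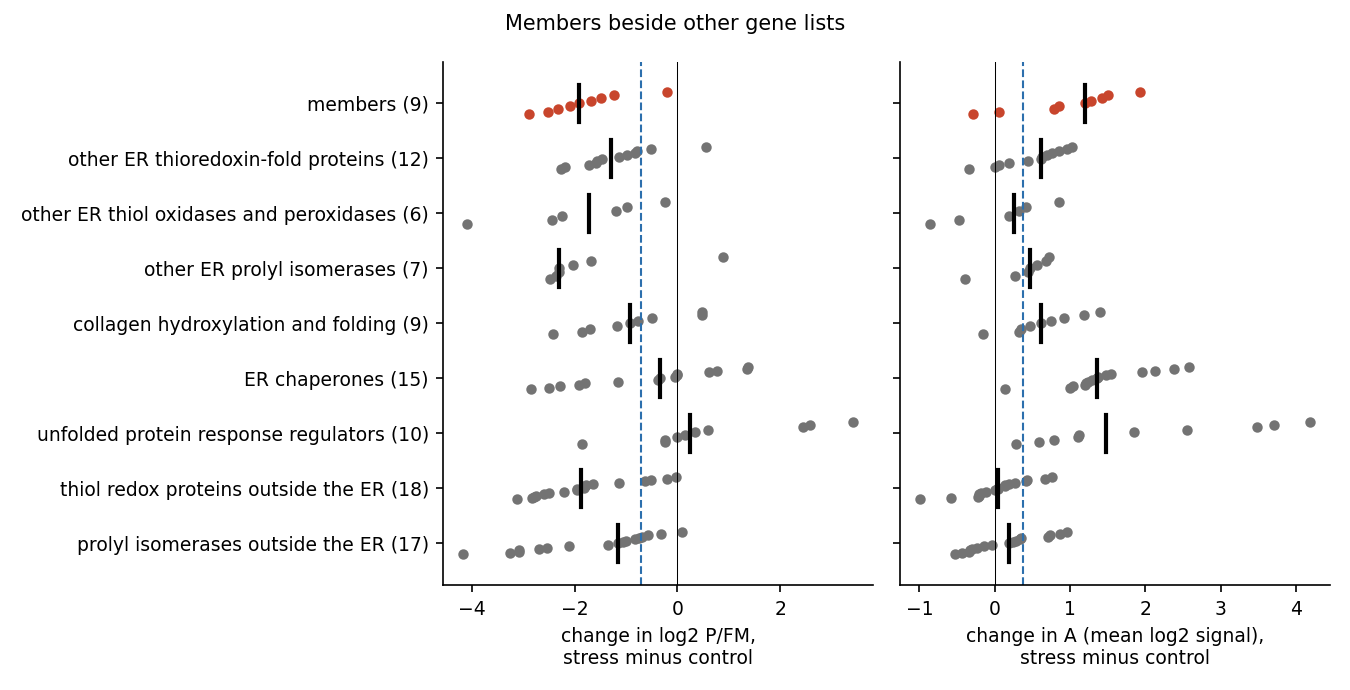
Change in log2 P/FM (left) and in A (right), stress minus control on the log2 scale, for each mRNA of the members (red) and of 8 other lists (grey) that passed the filter, with the number of mRNAs in brackets. Black bars are list medians and blue dashed lines the medians of all coding mRNAs (-0.71 and 0.37). The members lie to the left in ratio, as the thiol redox proteins outside the ER do, and to the right in A, as the ER chaperones do.

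Among 5498 coding mRNAs with A above 7 and all probes well above background, the 5 nearest to the medians of the members in log2 P/FM on both arrays and in the change in A were Atxn10, Cct8, Hsd17b12, Serpinh1 and Rae1, at distances of 0.17 to 0.31 on the log2 scale over 2 arrays. Serpinh1, the collagen chaperone of the ER, went from 1.60 to -0.10 with A higher by 0.91. Cct8, a subunit of the cytosolic chaperonin, went from 1.47 to -0.27 with A higher by 1.25.

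The changes of the members in log2 P/FM were recomputed under other ways of processing. Alternatives that only alter the filter or the probes used leave most of these values as they are, so the number of alternatives in which a value stays is no measure of its stability. Larger moves came with the signals and the scaling. With spike-in scaling the change of Creld2 went from -2.90 to -0.42 and that of Txndc5 from -2.51 to -0.03. The change of Creld2 was -0.77 with processed signals, and that of Txndc5 was -1.07 with normexp background correction.

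**Figure D4:**
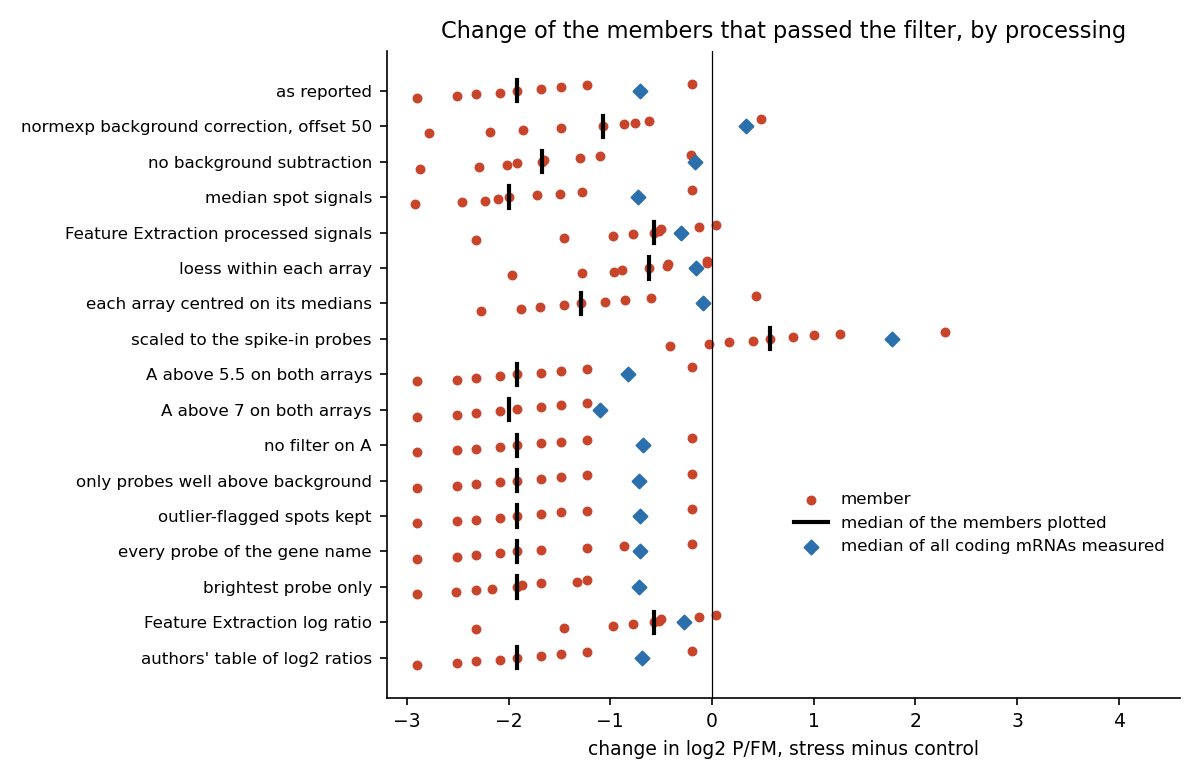
Change in log2 P/FM (horizontal axis, stress minus control) of the members that passed the filter (red), their median (black bar) and the median of all coding mRNAs measured (blue diamond) under each way of processing. With scaling to the spike-in probes the median of the members lay at 0.57, and under the other ways shown it was negative.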

How the data were processed

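Per the file headers, the intensity of each spot and of its surroundings was read with Feature Extraction 10.7.1.1. The deposited files also hold processed intensity values and log10 ratios of Cy5 to Cy3, dye-normalized by that software, and flags of 0 or 1 (the other columns used). The authors further deposited log2 ratios of Cy3 to Cy5 after background correction without normalization, which equal the mean over spots of an accession in 99.99% of 11483 rows on the control array (tolerance 0.001).

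Here each mean spot signal was reduced by its median local background with limma 3.58.1, results under 0.5 were set to that floor, and no normalization was applied. Outlier-flagged spots (295, 0.68%) were dropped. A member is the mean of its probes with an NM accession, or of all probes where it had none (Pdia3). The filter was A above 4.5 on both arrays. Groups came from the labels, and with 1 array each no test was made. The precision is limited by the 2 arrays. Because P was always in Cy3, dye and fraction cannot be told apart in a level. Probe positions are those of the files (mm9). Promoters are RefSeq's (GRCm38.p6). Protein sequences were not analysed here. Steps were tested on simulated data.

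The members and lists were chosen with earlier results of these data known. Genes named from each list are those with the highest and lowest changes in A and log2 P/FM among mRNAs with all probes well above background, and the 5 nearest mRNAs are by Euclidean distance. Leprel4 and Rbfox3 had no probe by name. Alternatives were other background corrections and signals, loess, centring, spike-in scaling, filters on A or background, outliers kept, other ways to combine probes, the log ratios of the scanner software and the log2 table of the authors.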

Additional observations from a re-analysis of the deposited data

How the results depend on the processing

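No paired analysis was possible because each condition was 1 array. Replicates could not be left out for the same reason. The median log2 P/FM of the members in control, 1.65, was 1.18 with the processed signals and 1.07 with the log ratio that the scanner software gives, 0.75 with normexp, 1.097 after loess and 1.32 after centring. In stress it was 0.41 with processed signals, 0.21 after loess, 0.086 after centring, 2.28 with spike-in scaling and 0.30 with the log ratio. The median change of -1.91 was -0.97 with normexp, -0.63 with processed signals, -0.62 after loess, -1.29 after centring, -0.57 with the log ratio. It turned positive, at 0.57, under spike-in scaling. The number of sensitive members was 3 of 10 with processed signals (33.3% of all mRNAs), 4 of 9 after loess (27.2%), 0 of 9 with spike-in scaling (0.758%) and 3 of 9 with the log ratio (32.6%), so that with processed signals and the log ratio it was close to the share of all mRNAs. That of resistant members was 4, 3, 8 and 3 under the same alternatives, beside 6.79%, 4.37%, 30.3% and 6.63% of all mRNAs. There was 1 inducible member, Ero1lb, with probes well above background and with the brightest probe alone, since each admitted its single dim probe. The median change in A, 1.20, was 0.44 with normexp, 0.93 without background subtraction, 0.73 with processed signals, 0.71 after centring, 1.47 with spike-in scaling and 0.98 with the log2 of summed signals. The number of members higher by 1 or more was 3 of 10 with normexp (0.678% of all mRNAs), 3 of 10 with processed signals (4.84%) and 2 of 9 after centring (2.37%).

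Values of single members that lay past a threshold without normalization changed direction as follows. With spike-in scaling the change in log2 P/FM was 0.16 for P4hb, 0.80 for Pdia3, 1.26 for Pdia4, 0.57 for Pdia5, 1.00 for Pdia6 and 0.40 for Ppib, and log2 P/FM in stress was 1.58 for Txndc5, 1.50 for Creld2 and 1.18 for Ppib. With both the processed signals and the log ratio the change of Pdia3 was 0.044 and Creld2 in stress was at 0.52, and after loess Creld2 was at 0.13. In control, normexp gave -0.12 for Ero1l and -0.51 for Ero1lb, and Ero1lb was at -0.74 with probes well above background and with the brightest probe alone. Smaller values turned as well. The change of Ero1l in log2 P/FM was 0.48 with normexp, 0.43 after centring and 2.29 with spike-in scaling, and its change in A with normexp was -0.74. The change of Ppib in A was -0.11 with normexp, -0.41 with processed signals and -0.42 after centring. In stress P4hb was at 0.23 and Pdia4 at 0.20 with processed signals and the log ratio, at 0.21 and 0.12 after loess and at 1.82 and 2.28 with spike-in scaling, Pdia4 was at 0.086 after centring, Pdia5 at -0.0062 without background subtraction and -0.03 with median spot signals, and Pdia6 at -0.33 with every probe. The change of Ero1lb in log2 P/FM was 0.71 with normexp, 0.11 without background subtraction and 1.47 with probes well above background and the brightest probe alone, and its change in A with normexp was -1.45. Normexp left the median spot of the control array at 212 in P and 316 in FM, against 66.3 and 79.0 in stress and 14.3 and 21.0 after plain subtraction in control. What moved the values was not tested, for normexp or for the other alternatives. Of the 130 values computed for the group under alternatives, 95 moved by less than the spread, or by at most 1.5 times for a count. Direction was checked only for values past a threshold. Because several alternatives alter only the filter or the probes used, this number is no measure of stability. Leaving out Ero1l, or Ppib and Creld2, both chosen after seeing the data, gave median changes in log2 P/FM of -2.00 and -1.68.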
